A study of Homo sapiens with 15 samples.

Results

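PKLR, RB1, GULP1, NXT2, CAP2 and GMFB are 6 protein-coding genes that stand among the largest rises of the trex4039 comparison, and they are described here across the 5 groups of a CRISPR activation experiment. Their rows were taken by gene symbol from a table of 11230 listed loci, and each symbol matched 1 row. They were selected on the deposited log2 fold change of trex4039 over control, so those values are a description and carry no test here. HEK293FT, a fast-growing line derived from human embryonic kidney cells, was the cell line in all groups. Cells of all groups were transfected with dCas9-VP64, a Cas9 without cutting activity fused to an activator, and with the MS2-p65-HSF1 activator, and each group received a pool of 5 guides, aimed in the target groups 50 to 450 bp upstream of the start of a long non-coding RNA. RNA was taken at 48 hours, after puromycin selection had begun at 24 hours. The groups are the libraries titled trex4039 (labelled as targeting TrEx4039), trex5008 (labelled TrEx8168), trex8168 (labelled TrEx5008), trex0108 (labelled TrEx108) and the non-targeting control, with 3 libraries each. For trex5008 and trex8168 the title and the target label carry each other's number, and the groups are named here by title, which the table's columns follow. A line in bulk culture was sequenced, so fewer cells of a kind and less RNA per cell cannot be told apart.

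The 6 genes have separate known roles. PKLR encodes the pyruvate kinase of liver and red cells, the enzyme of the last step of glycolysis, and RB1 encodes the retinoblastoma protein, which binds E2F factors and holds cells before S phase. GULP1 encodes an adaptor of engulfment receptors, and NXT2 a partner of the NXF1 messenger RNA export receptor. CAP2 encodes a cyclase-associated protein that speeds actin filament turnover with cofilin, and GMFB encodes glia maturation factor beta, a cofilin relative that removes branches made by the ARP2/3 complex.

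To show the DNA before start sites of genes that rose in trex4039, the 250 bases upstream of a RefSeq start are given for GULP1, CAP2 and the first of 3 NXT2 starts (GRCh38.p14, plus strand, 5′ to 3′). Capitals mark CG dinucleotides.
GULP1, chr2:188291624-188291873: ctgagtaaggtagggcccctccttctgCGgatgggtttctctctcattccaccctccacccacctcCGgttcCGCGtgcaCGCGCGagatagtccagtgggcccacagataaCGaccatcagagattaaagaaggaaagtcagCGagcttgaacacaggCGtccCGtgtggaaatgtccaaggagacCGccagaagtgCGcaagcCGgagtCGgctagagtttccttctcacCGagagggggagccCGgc
CAP2, chr6:17393345-17393594: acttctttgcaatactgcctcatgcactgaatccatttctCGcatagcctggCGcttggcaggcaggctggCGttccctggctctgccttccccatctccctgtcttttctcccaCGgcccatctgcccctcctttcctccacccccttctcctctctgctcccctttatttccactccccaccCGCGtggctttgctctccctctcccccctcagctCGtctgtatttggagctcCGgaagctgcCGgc
NXT2, chrX:109535574-109535823: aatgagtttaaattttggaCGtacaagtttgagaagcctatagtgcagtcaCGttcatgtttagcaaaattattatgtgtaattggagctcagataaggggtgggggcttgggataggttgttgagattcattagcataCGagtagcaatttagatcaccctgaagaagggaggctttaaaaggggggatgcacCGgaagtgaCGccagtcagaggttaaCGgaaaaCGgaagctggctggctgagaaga
These windows hold 17, 9 and 7 CG dinucleotides, and their GC content is 59.2% for GULP1, 60.0% for CAP2 and 44.4% for NXT2. Over all 35116 RefSeq windows of this length the median was 58.0% GC and 11 CG dinucleotides. Over the 3052 windows of protein-coding genes called higher in trex4039 the medians were higher, at 63.2% and 20, and 60.2% held the GC box GGGCGG. For the 1964 windows of those called lower they were higher still, at 68.0% and 22, and 71.4% held the GC box. These values are thus not particular to genes that rose. The GC box GGGCGG, in 42.6% of all windows, was found on neither strand of these 3 windows. Nor was the TATA box TATAAA, which 10.7% of all windows hold. The E-box CACGTG, in 6.34% of all windows, was not found either. CCAAT, present in 32.0% of all windows, was found in that of NXT2 alone. The other NXT2 starts differ from the first. The window of the second has 42.8% GC, 4 CG dinucleotides and no match to these motifs, whereas that of the third has 68.0% GC, 18 CG dinucleotides, a GC box and an E-box. In the GENCODE v29 gene annotation CAP2 starts at 17393216, so its whole window lies inside that gene span. GULP1 and NXT2 start there at 188291669 and 109535781, within their windows. Which start the libraries used is not known.

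All 6 genes had their highest group mean in trex4039 and their lowest in control. The choice of the genes by trex4039 over control favours both, so nothing is read from this pattern. The deposited values are the authors' means of normalised counts over 3 libraries, without a spread, and levels of different genes are not set against each other because they are not per length. For PKLR the authors' deposited table gives 1320 in trex4039, 1255 in trex5008, 458.2 in trex8168, 589.6 in trex0108 and 403.6 in control. PKLR was thus high in trex4039 and trex5008, and its other means lay far below these. Its fold of means over control was 3.27 in trex4039 and 3.11 in trex5008, against 1.46 in trex0108; in trex8168 the log2 ratio of means was 0.18.

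RB1 had means of 3689 in trex4039, 3179 in trex5008, 2791 in trex8168, 2369 in trex0108 and 2269 in control by the authors' deposited table. Its means thus formed a gradual series, with trex0108 close to control. NXT2 stood at 1525 in trex4039, 1192 in trex5008, 1085 in trex8168, 1048 in trex0108 and 890.0 in control by the authors' deposited table. GMFB ran in the same order, with 6884 in trex4039, 5124 in trex5008, 4796 in trex8168, 4582 in trex0108 and 4259 in control by the authors' deposited table. For RB1, NXT2 and GMFB the fold of means over control in trex4039 was 1.63, 1.71 and 1.62.

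GULP1 had means of 820.8 in trex4039, 610.2 in trex5008, 513.1 in trex8168, 534.6 in trex0108 and 468.2 in control by the authors' deposited table. Its trex4039 mean was the highest, that of trex5008 came next, and those of trex8168 and trex0108 lay closer to control. CAP2 was the 1 gene of the 6 whose trex5008 mean lay below those of trex8168 and trex0108, with 1813 in trex4039, 1334 in trex8168, 1309 in trex0108, 1123 in trex5008 and 1081 in control by the authors' deposited table. The fold of means in trex4039 was 1.75 for GULP1 and 1.68 for CAP2.

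**Figure D1:**
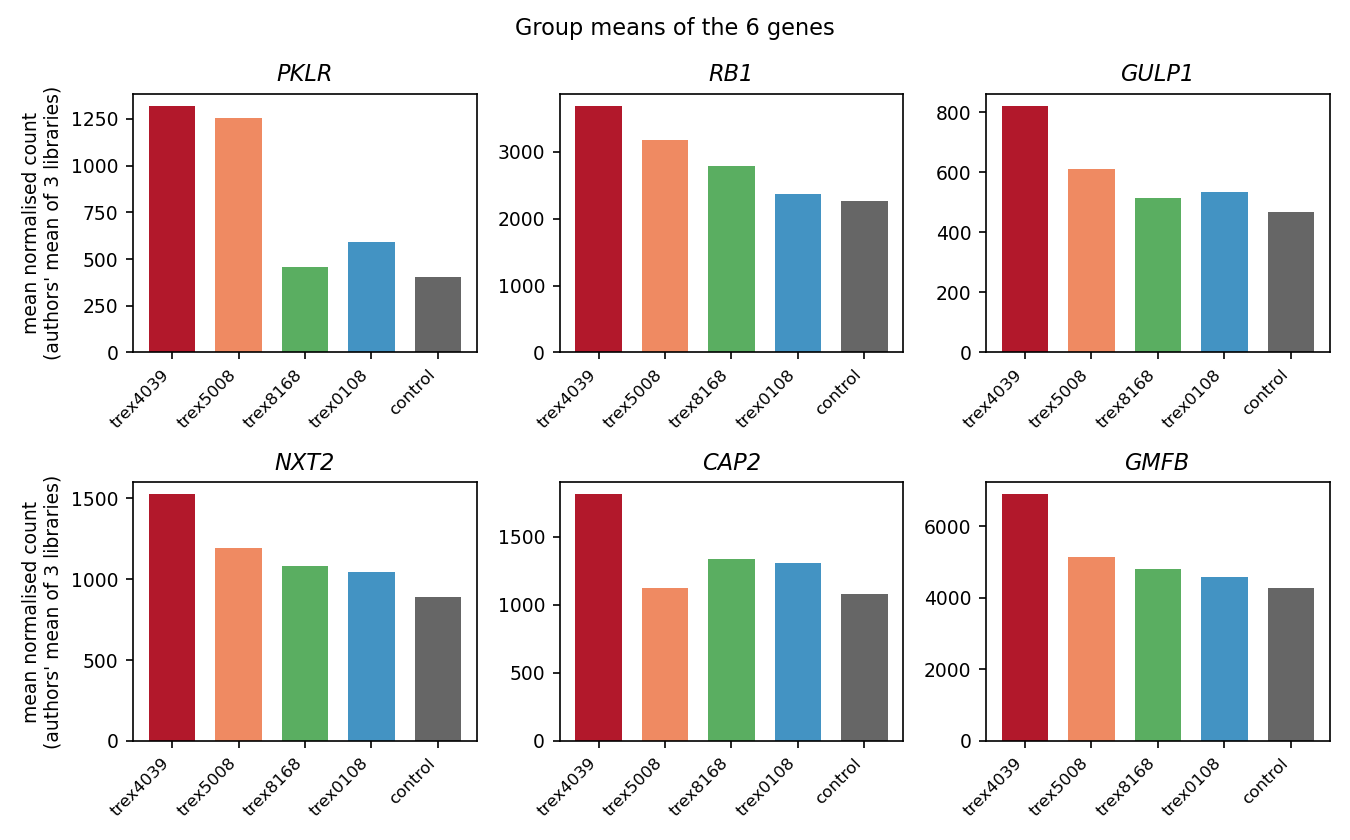
Bars give the authors' mean normalised count of 3 libraries (vertical axis, from 0, own scale per gene) for each of the 5 groups, with no error because the table holds none. PKLR is high in trex4039 (1320) and trex5008 (1255), and CAP2 is high in trex4039 (1813) but near control in trex5008 (1123 and 1081).

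In trex4039 the 6 deposited log2 fold changes lay between 0.65 and 0.89, and all 6 genes were called higher at an adjusted p under 0.05, as were 37.1% of the listed rows with an adjusted p. This contrast chose the genes, so nothing is read from the count. The 6 values were 0.89 for PKLR, 0.73 for GULP1, 0.71 for NXT2, 0.70 for CAP2, 0.66 for RB1 and 0.65 for GMFB by the authors' deposited table. At the other thresholds used for comparison, an adjusted p under 0.1 called 41.9% of rows higher and 39.1% lower, and one under 0.01 called 29.1% and 25.4%. If the adjusted p came from a Wald test of the deposited fold change, the p and its rank allow a standard error of at most 0.14 for PKLR and between 0.07 and 0.09 for the others. Ranked by this value among named rows with a mean of at least 50, GMFB was the lowest of the 6 genes, and just below it stood SGMS2, a sphingomyelin synthase gene, ENDOD1 and SAMD9, each at 0.64 by the authors' deposited table. Rows of other kinds stand between the 6 genes, the lincRNA AC116609.2 at 0.89 and the spliceosomal RNA gene RNU5E-1 at 0.65 by the authors' deposited table.

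PKLR had the largest gap between the deposited value and the log2 ratio of means. Its log2 ratio of means was 1.71, and the deposited value was 0.52 of that, against 0.90 to 0.94 for the other 5 genes. Among 96 called rows with a mean between 400 and 1600 and a log2 ratio of at least 0.5, the median of this share was 0.93 and 2 rows lay below PKLR. Over 4855 called rows with a log2 ratio of means of at least 0.3 in either direction, 1 minus this share was larger where the bound on the standard error was larger. Spearman's rho was 0.97, across rows of the same libraries. Both quantities are computed from the deposited fold change, so part of this rho may be built in.

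In trex5008, 5 of the 6 genes were called higher and 0 lower, where 29.8% of the listed rows with an adjusted p were called higher. Both comparisons use the same control libraries, so this count is no independent repeat. The share of rows called lower was 24.3%. At 0.1 the shares were 35.1% higher and 28.8% lower, and at 0.01 they were 20.3% and 17.3%. PKLR had a log2 fold change of 0.84 with an adjusted p of 1.32e-07 by the authors' deposited table, the third highest of 11230 rows. RB1 followed with 0.46 and an adjusted p of 4.22e-09, and NXT2 with 0.38 and 2.97e-05 by the authors' deposited table. GULP1 had 0.34 with an adjusted p of 6.62e-04, and GMFB 0.25 with 0.00292 by the authors' deposited table. The standard error was at most 0.14 for PKLR and at most 0.07 to 0.09 for the other 4. CAP2 was not called, with a log2 fold change of 0.05, an adjusted p of 0.641 and a standard error of at most 0.11 in values from the authors' deposited table.

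The ratio of trex4039 to trex5008 means leaves the control libraries out. It was largest for CAP2, at 1.61-fold (0.69 on the log2 scale), and smallest for PKLR, at 1.05-fold (0.07). GULP1, GMFB, NXT2 and RB1 stood at 0.43, 0.43, 0.36 and 0.21 on the log2 scale. Of 6972 listed protein-coding rows with a mean of at least 50, 99.9% had a lower ratio than CAP2 and 63.3% a lower ratio than PKLR; the median was 0.02. The difference of the deposited log2 fold changes was 0.65 for CAP2 with a standard error of at most 0.13, and 0.04 for PKLR with at most 0.20. For the other 4 genes that difference ran from 0.20 for RB1 to 0.40 for GMFB, with a standard error of at most 0.13. The genes were chosen for a high trex4039 value, which lifts this ratio, so these differences were not tested.

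In trex8168, RB1, NXT2 and CAP2 were called higher and 0 genes lower, where 14.6% of the listed rows with an adjusted p were called higher and 6.45% lower. At 0.1 these shares were 21.2% and 9.68%, and at 0.01 they were 6.42% and 2.69%. CAP2 had a log2 fold change of 0.28 with an adjusted p of 0.00232, RB1 0.28 with 0.00217 and NXT2 0.26 with 0.0179 by the authors' deposited table. GMFB, GULP1 and PKLR had 0.16, 0.12 and 0.08 with adjusted p of 0.126, 0.402 and 0.77 by the authors' deposited table. For PKLR the standard error here is bounded only at 0.29, which leaves room for a moderate rise.

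In trex0108, CAP2 alone was called higher and 0 genes lower, where 5.65% of the listed rows were called higher and 0.249% lower. The shares were 6.78% and 0.481% at 0.1, and 4.61% and 0.116% at 0.01. Its log2 fold change was 0.26 with an adjusted p of 0.0168 by the authors' deposited table. PKLR had the same deposited value, 0.26, but an adjusted p of 0.738 by the authors' deposited table. Its log2 ratio of means was larger, at 0.55 against 0.28 for CAP2. NXT2, GULP1, GMFB and RB1 had deposited log2 fold changes of 0.21, 0.17, 0.10 and 0.06, with adjusted p from 0.233 to 0.999 by the authors' deposited table. CAP2 was thus called in each comparison except trex5008, whereas PKLR was called in trex4039 and trex5008; whether the genes differ in this was not tested.

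**Figure D2:**
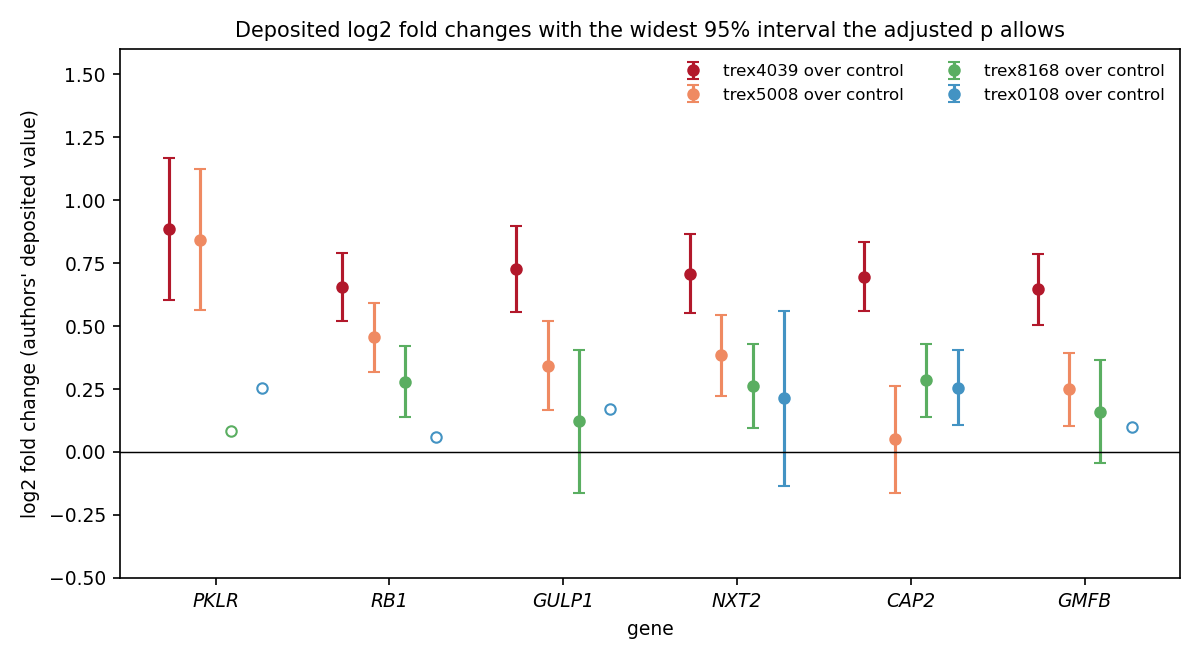
Points give the deposited log2 fold change over control (vertical axis) for each gene in the 4 comparisons. Bars give the widest 95% interval around that value which the adjusted p allows, if it came from a Wald test. Those of PKLR in trex4039 and trex5008 do not reach its log2 ratios of means, 1.71 and 1.64. Open points are values whose bar would exceed 0.5 to either side; PKLR is high in trex4039 and trex5008 (0.89 and 0.84), and CAP2 has 0.05 in trex5008.

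Of the 6 genes, 4 have AU-rich transcripts. The genes were chosen for a high fold change in trex4039, which itself followed GC content (Spearman's rho -0.78 over the listed rows). Such a choice favours AU-rich transcripts, so this is no independent trait of the 6. The GC content of the longest coding transcript in GENCODE v29 was 30.2% for GULP1, the lowest of 6111 listed protein-coding rows with a sequence. It was 33.4% for GMFB, 35.3% for NXT2 and 37.3% for RB1, all within the lowest 6.61% of those rows. CAP2 stood at 44.0% and PKLR at 56.9%, against a median of 47.7%. Transcript lengths showed no such common feature, from 2692 bases for NXT2 to 7427 for GULP1, with a median of 3612 over the listed rows.

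Fold changes followed GC content across the listed rows. Spearman's rho was -0.78 in trex4039 and -0.78 in trex5008, against -0.27 in trex8168 and -0.40 in trex0108, over rows that share libraries. Rows called higher in trex4039 had a median GC content of 41.3%, and rows called lower 59.5%. With the median of each of 20 GC bins subtracted, the trex4039 values were 0.38 for GULP1, 0.36 for NXT2, 0.33 for RB1, 0.30 for GMFB and 0.47 for CAP2, while that of PKLR was 1.10. In trex5008 the same step left 1.03 for PKLR, 0.25 for RB1, 0.16 for NXT2, 0.12 for GULP1, 0.02 for GMFB and -0.11 for CAP2. PKLR then had the highest value of the 6111 rows in both comparisons. The part of GC content in the values of the 6 genes was not tested.

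**Figure D3:**
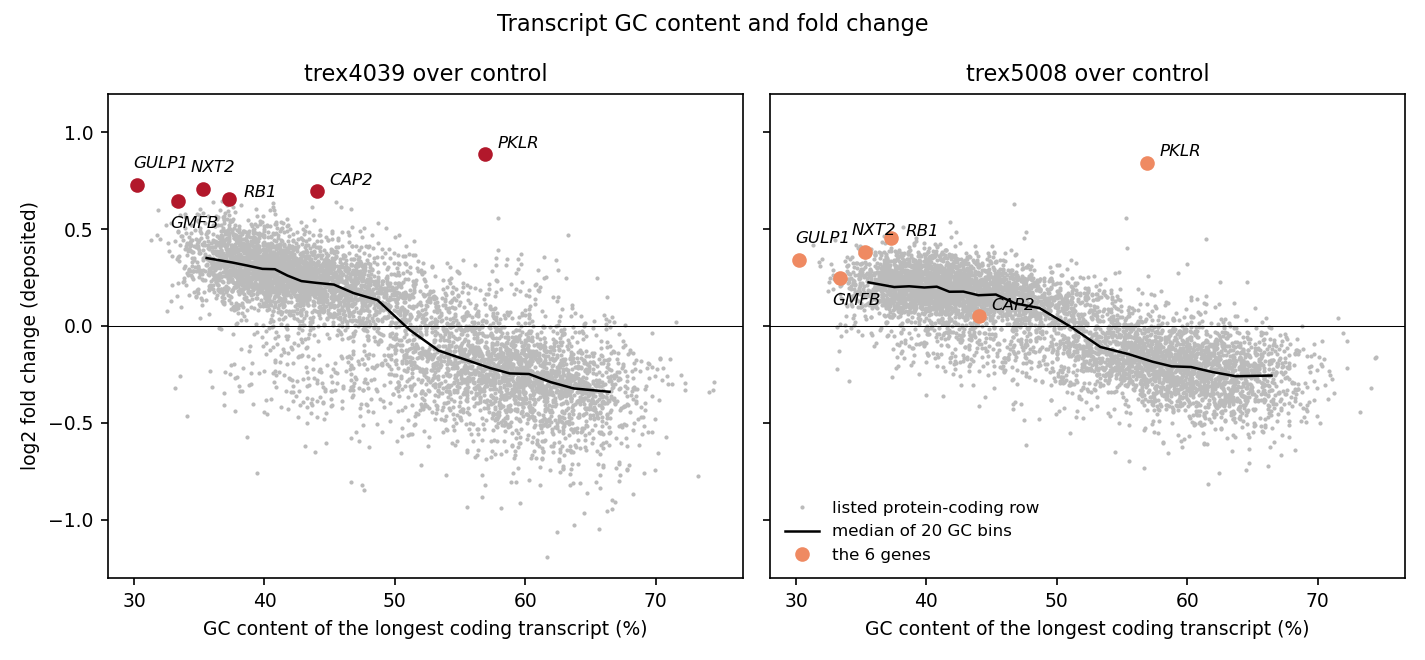
Each grey point is a listed protein-coding row, with the GC content of its longest coding transcript (horizontal axis, %) and its deposited log2 fold change over control (vertical axis) in trex4039 (left) and trex5008 (right). The line joins medians of 20 GC bins; PKLR, at 56.9% GC, lies far above the line in both panels, and GULP1 at 30.2% is the leftmost point.

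The rises of RB1, CAP2 and GMFB stood among smaller rises of neighbouring loci, and that of PKLR among falls. The neighbours' values are not corrected for GC content, which fold changes in trex4039 followed. The part of GC content in them was not tested. Within 500 kb of the RB1 row (chromosome 13, 48877721 to 49061711, hg19), 5 of 6 listed rows were called higher in trex4039 and 0 lower. RCBTB2 and ITM2B had log2 fold changes of 0.32 each, and MED4 had -0.01 with an adjusted p of 0.921 by the authors' deposited table. Around CAP2 (chromosome 6, 17393577 to 17575111), 5 of 5 rows were higher, among them FAM8A1 at 0.35, the nuclear pore gene NUP153 at 0.17 and the RNA-binding protein gene RBM24 at 0.41 by the authors' deposited table. Around GMFB (chromosome 14, 54931479 to 54955844), 5 of 6 rows were higher and 0 lower. CGRRF1, CNIH1 and the cell cycle phosphatase gene CDKN3 had 0.41, 0.43 and 0.22 by the authors' deposited table. The median values in trex4039 of the GC bins that hold them were 0.33, 0.35 and 0.22. Over all listed rows 37.1% were higher, and neighbours are not replicates of each other. In trex5008, 5 of 6 rows near RB1, 4 of 6 near GMFB and 1 of 5 near CAP2 were higher, and 0 were lower. Over all listed rows in that comparison 29.8% were higher and 24.3% lower, and it shares the control libraries.

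Near GULP1 (chromosome 2, 189156145 to 189471078) the single listed row, the collagen gene COL3A1, was lower, with -0.33 by the authors' deposited table. Near NXT2 (chromosome X, 108779053 to 108788429), ACSL4, an acyl-CoA synthetase gene, was higher with 0.28, and TMEM164 had -0.02 with an adjusted p of 0.757 by the authors' deposited table.

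The PKLR row (chromosome 1, 155253534 to 155278442) had 22 listed neighbours, of which 1 was higher and 16 lower in trex4039, where 33.7% of the listed rows were lower. In trex5008, where the log2 fold change of PKLR was close to that in trex4039, 3 of the 22 were higher and 10 lower. The shares over all listed rows in trex5008 were 29.8% higher and 24.3% lower. HCN3, a pacemaker channel gene, had means of 759.3 in trex4039, 933.2 in trex5008 and 1176 in control, and log2 fold changes of -0.59 in trex4039 and -0.31 in trex5008 by the authors' deposited table. RUSC1-AS1 and the thrombospondin gene THBS3 had -0.55 and -0.67 in trex4039 by the authors' deposited table. The PKLR row spans 24.9 kb, whereas GENCODE v29 (GRCh38) gives the gene 12.1 kb, and the HCN3 row overlaps it by 7.12 kb. In GENCODE the genes lie on opposite strands. At its other end XLOC_001935, named here because of the overlap, shares 3.84 kb and had -0.21 in trex4039 by the authors' deposited table. The library kit keeps strand, per its name in the labels, but whether counting used it is not stated there, so reads of the overlapping stretches cannot be assigned with certainty. In trex4039 both overlapping rows were lower; in trex5008 HCN3 was lower and XLOC_001935 had -0.03 with an adjusted p of 0.767 by the authors' deposited table. The RB1 row likewise overlaps RCBTB2 by 2.13 kb, and in GENCODE LPAR6 lies within RB1 on the other strand.

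**Figure D4:**
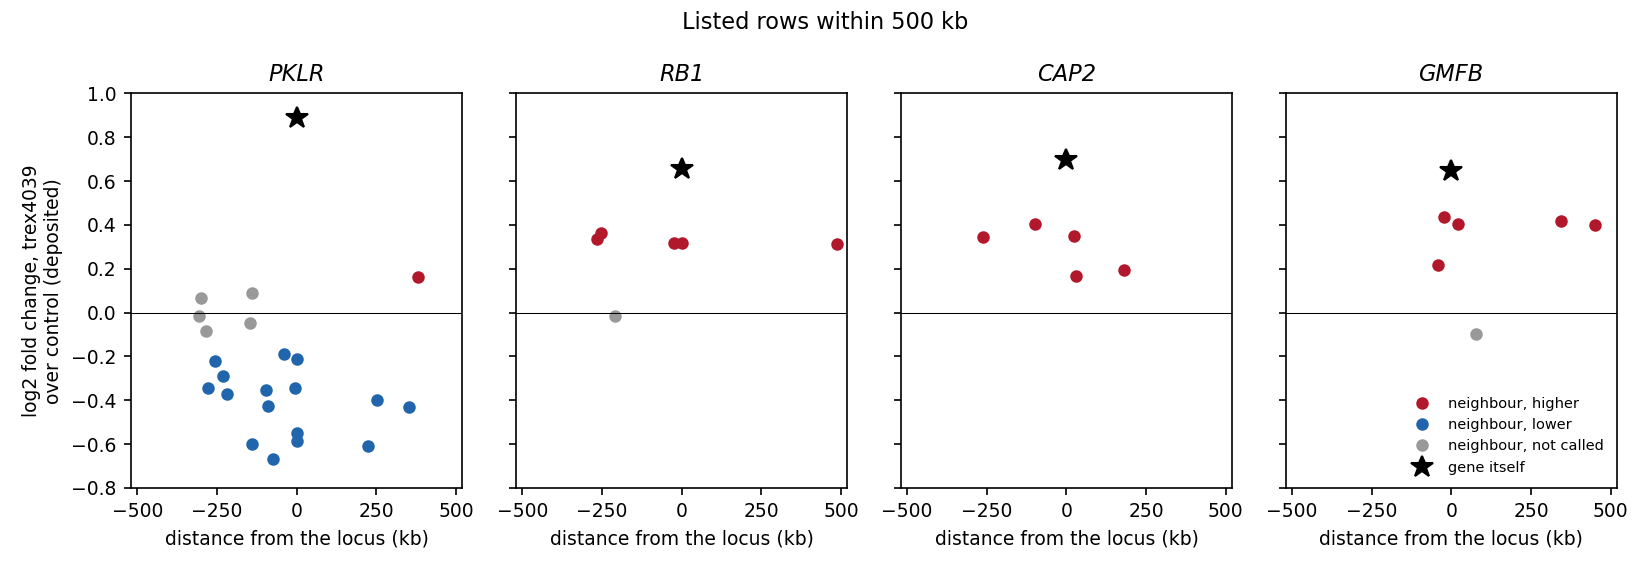
Points are listed rows within 500 kb, by distance from the edge of the gene's own row (horizontal axis, kb, 0 for an overlap) and deposited log2 fold change of trex4039 over control (vertical axis); the star is the gene itself. Most neighbours of PKLR were lower (16 of 22), and most of those of RB1, CAP2 and GMFB were higher.

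Over 8 lists of partner genes with 104 rows of 97 genes, 39 rows were higher and 28 lower in trex4039, where 37.1% of all listed rows were higher and 33.7% lower. In trex5008, 32 were higher and 21 lower, against 29.8% and 24.3% of all listed rows. The lists together thus stood near the background in both comparisons. Of 31 glycolysis and lactate genes, 11 were listed on 12 rows, of which 3 were higher and 6 lower in trex4039, with a median of -0.17 against 0.03 over all listed rows. BPGM, which makes bisphosphoglycerate in red cells, and the lactate transporter gene SLC16A1 rose with 0.37 and 0.20, and the phosphofructokinase genes PFKL and PFKP fell with -0.64 and -0.46 by the authors' deposited table. In trex5008 4 rows were higher and 3 lower. PKM, the pyruvate kinase gene of other tissues, was not among the listed rows and was not analysed here. Of 24 liver and red cell genes 5 were listed, with 0 higher and 4 lower in trex4039 and 0 and 3 in trex5008. In trex8168, 2 of the 5 were lower. The median of this list in trex4039 was -0.46, and -0.13 with the GC trend removed. For the glycolysis and lactate list the median with the GC trend removed was -0.06 in trex4039. SREBF1 and MLXIPL, regulators of fat and sugar metabolism, had -0.86 and -0.82 in trex4039 by the authors' deposited table. MLXIPL encodes ChREBP, a known activator of PKLR in liver. Its means were 475.0 in trex4039, 542.3 in trex5008, 617.8 in trex8168, 758.0 in trex0108 and 877.1 in control by the authors' deposited table. MLXIPL thus also fell in trex8168, with -0.47 by the authors' deposited table, and PKLR was not called there. A link between these genes was not tested.

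The RB family, E2F and G1 cyclin list had 20 rows of 18 genes, with 8 higher and 5 lower in trex4039, a median of -0.09, and 5 and 5 in trex5008. The cyclin gene CCNE2 and LIN54, of the complex that binds RB relatives, rose with 0.55 and 0.43, and the RB relative RBL1 with 0.29 by the authors' deposited table. The falls were led by a low row of LIN52 (means of 30.4 in trex4039 and 62.1 in control) at -0.45 and by CCND1, the cyclin D1 gene, at -0.36 by the authors' deposited table. RB1 restrains E2F targets, and of 15 listed targets 4 were higher and 3 lower in trex4039, with a median of 0.08, and 6 and 3 in trex5008. With the GC trend removed, the median of the targets in trex4039 was -0.04, and that of the RB family list was 0.03, so both changed sign. CDK1 rose with 0.49 and TYMS, the thymidylate synthase gene, with 0.17, and UHRF1 fell with -0.39 by the authors' deposited table. MCM5 was also called lower, at -0.37, on a row with means of 19.2 in trex4039 and 34.9 in control by the authors' deposited table.

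Messenger RNA export genes, the partners of NXT2, had 7 of 14 listed rows higher and 1 lower in trex4039, with a median of 0.14, and 6 higher and 0 lower in trex5008. With the GC trend removed, the median in trex4039 was -0.05, on the other side of 0. THOC1 and THOC7, subunits of the THO complex, rose with 0.46 and 0.39 in trex4039 and 0.44 and 0.39 in trex5008, and MCM3AP fell with -0.19 in trex4039 by the authors' deposited table. NXT1, the close relative of NXT2, had a log2 fold change of -0.18 with an adjusted p of 0.0533 in trex4039 by the authors' deposited table.

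Actin turnover genes had 6 rows higher and 3 lower of 14 in trex4039, and 5 and 3 in trex5008. Their median was 0.10 in trex4039 and 0.05 in trex5008. With the GC trend removed, over rows with a known GC content, it was larger, at 0.18 and 0.10. CAPZA2, a subunit of the filament capping protein, and TWF1, a twinfilin gene, rose with 0.60 and 0.55, and CAP1, the relative of CAP2, with 0.26 in trex4039 by the authors' deposited table. In trex5008, where CAP2 was near control, CAP1 had 0.08 with an adjusted p of 0.143 by the authors' deposited table. A row named ACTB fell with -0.59 and LIMK1, a kinase gene of cofilin, with -0.25 in trex4039; the ACTB row had means of only 13.9 in trex4039 and 38.6 in control by the authors' deposited table. The ARP2/3 complex and its activators had 6 rows higher and 3 lower of 9 in trex4039, with a median of 0.24, and 3 and 0 in trex5008. With the GC trend removed, the median of this list was 0 in trex4039 and -0.02 in trex5008. ABI1 and the subunit gene ACTR2 rose with 0.45 and 0.37, and CYFIP1 and CTTN fell with -0.19 and -0.18 in trex4039 by the authors' deposited table. GMFG, the relative of GMFB, was not among the listed rows.

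Engulfment receptors and adaptors, the setting of GULP1, had 5 rows higher and 3 lower of 15 in trex4039, and 3 and 4 in trex5008. Their median in trex4039 was -0.003, and 0.02 with the GC trend removed. ANXA1 and PROS1, a bridging ligand of dying cells, rose with 0.52 and 0.34, and the ligand gene GAS6 and the transporter gene ABCA7 fell with -0.65 and -0.64 by the authors' deposited table. LRP1, the receptor that GULP1 binds, was not among the listed rows. In trex8168, 20 of the 104 rows of the 8 lists were higher and 6 lower by the authors' deposited table. Of all listed rows with an adjusted p, 14.6% rose there and 6.45% fell. In trex0108 the counts were 0 and 0, where 5.65% of all listed rows rose and 0.249% fell. With the threshold at 0.1, 4 list rows rose in trex0108 by the authors' deposited table, against 6.78% of all listed rows.

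**Figure D5:**
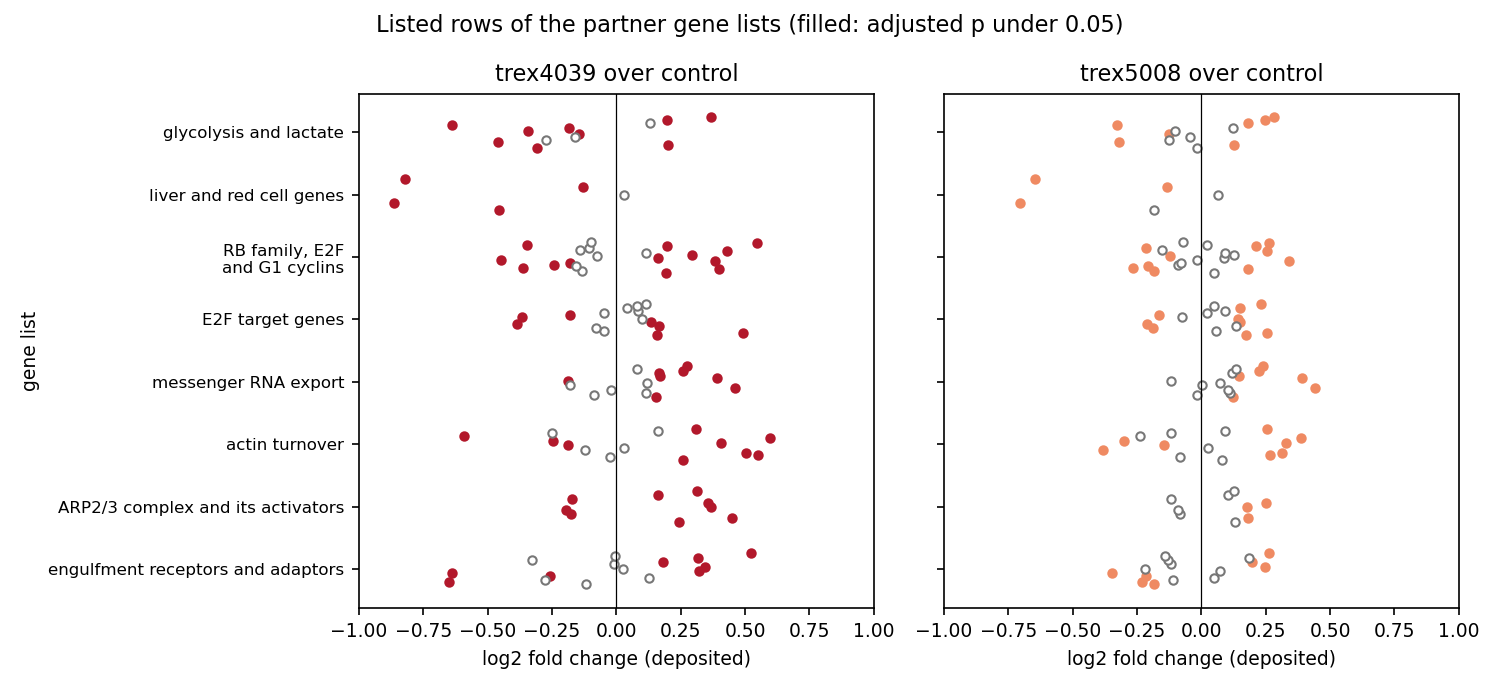
Each point is a listed row of 1 of the 8 partner gene lists (vertical axis), at its deposited log2 fold change over control (horizontal axis) in trex4039 (left) and trex5008 (right); filled points have an adjusted p under 0.05. Values fall on both sides of 0 in every list and the messenger RNA export list has 7 rows higher and 1 lower in trex4039.

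The genes most like each member were found by the distance between their 4 deposited log2 fold changes, among 6971 other protein-coding rows with a mean of at least 50. RB1 was nearest to SNX10, PPP3R1 and PAQR3, at distances of 0.09, 0.09 and 0.10. GMFB was nearest to KLHL7, MANEA and SAMD9 (0.06, 0.08 and 0.08), and GULP1 to PYROXD1, GMFB itself and MANEA (0.13, 0.15 and 0.15). NXT2 was nearest to GOLT1B, SLC16A4 and PPP3R1 (0.10, 0.14 and 0.14). CAP2 had less similar neighbours, TLR3, SGMS2 and SLC16A4, at 0.20 to 0.23. PKLR had none near, with GOLT1B, KCNA1 and VBP1 at 0.50 to 0.52.

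Of 10 genes taken as HEK293 markers 6 were among the listed rows, with 2 higher and 2 lower in trex4039. Among them LIN28B and CDH2 rose, with 0.29 and 0.31, and NEFM, a neurofilament gene, and PAX2 fell, with -0.54 and -0.25 in trex4039 by the authors' deposited table. Of 7 fibroblast markers 3 were listed, with 1 higher and 2 lower in trex4039, and their summed means were 513.3 in trex4039, 471.3 in trex5008, 497.4 in trex8168, 496.5 in trex0108 and 515.9 in control. LUM rose, from 205.8 in control to 293.7 in trex4039, and COL3A1 fell, from 284.1 to 216.8, by the authors' deposited table. COL1A2 also fell, on a low row that stood at 2.81 in trex4039 and 26.0 in control by the authors' deposited table. The summed means thus hide changes in both directions. The part of these markers in the results was not tested.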

How the data were processed

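PolyA RNA of 15 HEK293FT libraries, labelled as biological triplicates of 5 groups, was sequenced. The submitters' processing notes name DESeq2 1.14.1 and DESeq, the aligners STAR 2.5.1b and Bowtie2 2.2.1, Cufflinks and bedtools, and hg19 (GRCh37) as the build, without saying what each did. The deposited signal columns are the authors' means of normalised counts per group. The deposited log2 fold changes and adjusted p-values compare each target group with control, and the authors' calls equal an adjusted p under 0.1. All 11230 rows have at least 1 such call, so shares of called rows describe this list and not the genome. Values per library were not used here, so depth is unknown, no SD is given and no model was fitted. A count model had been planned for the case of values per library. P-values measure the spread between these libraries, and the 4 comparisons share 1 set of control libraries.

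Upper bounds on standard errors were computed from the adjusted p and, where that was under 0.1, its rank. The number of tests was taken as at least the listed rows with an adjusted p. The bounds were tested on simulated data only for rows with an adjusted p under 0.1, and p there came from a Wald test by design. That simulation therefore tested neither the bounds of other rows nor the use of a Wald test. GC content came from GENCODE v29 transcripts and was found for 82.1% of 7447 protein-coding rows. Upstream windows came from RefSeq (GRCh38.p14), where 5 of the 6 symbols matched; coordinates of rows are hg19, counted from 1. Python 3.11.15, pandas 2.3.3 and scipy 1.17.1 were used. The 6 genes and the gene lists were chosen with earlier results of these data known. Genes named beside the 6 were, per list, at most 2 with the highest and 2 with the lowest called log2 fold change in trex4039, up to 3 nearest named rows within 500 kb, 3 nearest profiles and relatives of the 6; others were named after their values were seen. Alternatives were the threshold, the scale, a pseudocount of 1 or 10, rescaling, a mean of at least 50, the GC trend and, chosen after seeing the data, genes with 1 row only.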

Additional observations from a re-analysis of the deposited data

How the results depend on the processing

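At an adjusted p under 0.01 the number of the 6 genes called higher in trex0108 was 0, against 1 (CAP2) at 0.05, as its adjusted p lies between them. The number called in trex4039, trex5008 and trex8168 stayed within 1.5 times under the thresholds of 0.1 and 0.01. No called value of the 6 genes changed sign as a log2 ratio of means, with or without a pseudocount of 1 or 10. None did after rescaling or with the GC trend removed. Sizes did change. With the GC trend removed, PKLR was larger in trex4039 and trex5008 and the other 5 genes were smaller, GMFB going from 0.25 to 0.02 in trex5008. As a log2 ratio of means PKLR had 1.71 in trex4039 and 1.64 in trex5008, against deposited values of 0.89 and 0.84. Over the 8 partner lists, 39 rows were higher in trex4039, of which 25 stayed above 0 with the GC trend removed, and 21 were lower in trex5008, of which 13 stayed below 0, counting only rows with a known GC content. At 0.01 the lower rows in trex5008 also numbered 13, and in trex8168 there were 10 higher and 3 lower, against 20 and 6. At 0.1, 4 rows were higher in trex0108, against 0 at 0.05. Leaving out single libraries was not run, since the table gives group means. No paired analysis was possible because the titles carry no replicate numbers shared between groups and the columns hold group means.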

Other observations

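Of the 97 listed genes of the partner lists, 6 had several rows, and rows of 1 gene did not always go one way. In the authors' deposited table LIN52 had log2 fold changes of 0.38 and -0.45 in trex4039, on rows with means of 1535 and 30.4 in that group. CCNE2 likewise had 0.55 and -0.35, on rows with means of 1384 and 25.0 in trex4039 in the authors' deposited table. These genes were named after their values were seen.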
